A study of Mus musculus with 27 samples.

Results

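Expression of 9 genes of neurotrophin and insulin-like growth factor (IGF) signalling was followed in the mouse hippocampus: Bdnf, Ntf3, Ntrk2, Ntrk3, Ngfr, Igf1, Igf1r, Igf2r and Vgf. The genes were chosen by name, with earlier results of these data known, and are 9 of the 51826 features of the deposited gene table. All 9 passed the filter on low counts and were among the 19969 genes tested. The RNA came from hippocampi of ICR mice, an outbred stock, after sham surgery or after removal of the ovaries (ovariectomy, OVX), and the mice were given saline or xanthohumol (abbreviated Xmo), a flavonoid with a prenyl group that comes from hops. The 4 groups were sham saline (n = 3), sham Xmo (n = 4), OVX saline (n = 4) and OVX Xmo (n = 4). The sources used here do not state the age of the mice, the Xmo dose or the time after surgery. The labels do not say whether each library is a separate animal, so p-values measure the spread between these samples only.

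Neurotrophins are secreted growth factors of neurons. BDNF binds TrkB (Ntrk2) and NT-3 (Ntf3) binds TrkC (Ntrk3), receptor tyrosine kinases that signal through RAS and MAP kinases, PI3K and AKT, and phospholipase C. The p75 receptor (Ngfr) binds all neurotrophins and, with sortilin, their uncleaved precursors. IGF-1 acts through its own receptor tyrosine kinase (Igf1r), while the IGF-2 receptor (Igf2r) is the mannose 6-phosphate receptor that carries IGF-2 and lysosomal enzymes into the cell. In the hippocampus these factors are known for their part in neuron survival and synaptic plasticity, and Vgf, a secreted neuropeptide precursor, is a gene that neurotrophins switch on.

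Igf1r was the only member to pass the test in any comparison, and its promoter is shown for that reason. The sequence is the 250 bases before the RefSeq start of Igf1r on the plus strand in GRCm38.p6, chr7:67952007-67952256, with matches to the GC box GGGCGG in capitals. A stretch of the Bdnf locus is given for comparison, because the Bdnf counts sum transcripts from several start sites. It is the 250 bases before 1 of 7 RefSeq starts of Bdnf, chr2:109692186-109692435, plus strand, the only 1 of the 7 Bdnf windows with a match to TGACG (the Igf2r window held 3), with the match to the short form of the cAMP-response element, TGACG, in capitals, which reads CGTCA because the match lies on the other strand.
Igf1r: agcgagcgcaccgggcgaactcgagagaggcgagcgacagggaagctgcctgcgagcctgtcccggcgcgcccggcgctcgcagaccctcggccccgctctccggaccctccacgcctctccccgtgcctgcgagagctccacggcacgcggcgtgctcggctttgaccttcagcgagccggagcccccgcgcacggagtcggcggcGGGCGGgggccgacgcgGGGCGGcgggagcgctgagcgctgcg
Bdnf: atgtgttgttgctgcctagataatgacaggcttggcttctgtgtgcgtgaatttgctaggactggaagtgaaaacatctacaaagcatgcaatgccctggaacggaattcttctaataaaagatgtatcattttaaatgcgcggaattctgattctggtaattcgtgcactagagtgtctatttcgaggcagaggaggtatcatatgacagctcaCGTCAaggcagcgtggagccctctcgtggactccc

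Motifs were searched on both strands of the 300-base windows around RefSeq starts, from 250 bases before to 50 after. RefSeq windows were found for 7 of the 9 genes, 14 windows in all; Ntrk3 and Vgf had none in the table. The Igf1r window had a GC content of 76%, against a median of 52.7% over 32851 promoters, and held 2 GC boxes. Other members had more: the Ngfr window (71.7% GC) held 4 and the Igf2r window (70.7% GC) held 3. A GC box was found in 35.7% of all promoters of this length, and TGACG in 20.8%. The full cAMP-response element TGACGTCA (1.79% of all promoters) and the full palindromic estrogen-response element (0.0700% of all promoters) had no match in any of the 14 windows. The short form of the latter, GGTCA, matched in windows of Bdnf, Igf1, Igf1r and Igf2r, and in 40.5% of all promoters. These matches describe letters in short windows and were not tested against expression.

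The libraries held from 20848661 to 39140593 gene counts. Libraries were scaled with TMM factors (trimmed mean of M-values), and levels below are CPM on that scale, that is, counts relative to the scaled library size. On average the sham saline libraries held a larger share of mitochondrially encoded mRNA, 25.8% ± 7.70 of counts (SD, n = 3), than sham Xmo (16.2% ± 2.08), OVX saline (14.2% ± 1.94; SD, n = 4 each) or OVX Xmo (12.4% to 16.5%). Sham Xmo 1 (19.16%) lay above sham saline 1 (18.96%), so those 2 groups overlapped. A set of 5 libraries also stood apart: sham saline 1 to 3, sham Xmo 1 and OVX Xmo 4. In 1257 of the 19969 genes (6.29%) these 5 did not overlap with the other 10 libraries, 741 genes lying higher and 516 lower. The set was recognised from the expression values themselves and holds every sham saline library, so a difference from sham saline and a difference from this set cannot be fully told apart. What distinguishes the 5 was not tested. Markers of the hippocampus were present in every library, with summed levels of 539 to 789 CPM for 12 dentate granule cell genes and 315 to 665 CPM for 8 CA1 pyramidal genes.

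Against sham saline, Igf1r was the only member to pass the test (adjusted p under 0.05, edgeR quasi-likelihood), and it passed in all 3 comparisons with that group. On the TMM scale its mean differed from that of sham saline by -19.4% in OVX saline, -24.2% in sham Xmo and -23.6% in OVX Xmo, while the deposited TPM put it higher. No member passed in OVX Xmo against OVX saline, in OVX Xmo against sham Xmo, or in the interaction. The share of all genes that passed was 6.24% for OVX saline against sham saline (2.59% lower), 1.51% in sham Xmo against sham saline (0.791% lower) and 1.19% in OVX Xmo against sham saline (0.441% lower). A count of 1 of 9 is the smallest above 0 that 9 genes can give. In OVX Xmo against OVX saline 0% of all genes passed with edgeR, where 834 genes (4.18%), Ntf3 the only member among them, had an unadjusted p under 0.05. Between OVX Xmo and sham Xmo 0.01% passed (2 genes), and no member was among the 10.2% of genes with an unadjusted p under 0.05. In the interaction 0.416% passed (83 genes), and 4 of 9 members, Ntrk2, Igf1, Igf1r and Vgf, had an unadjusted p under 0.05, against 17.4% of all genes. DESeq2 called 0, 0 and 1 of the members in these 3 tests.

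On the TMM scale, 4 of 9 members lay without overlap between OVX saline and sham saline, Ntrk3, Igf1 and Igf1r lower and Igf2r higher, against 24.5% of all genes (11.6% lower and 12.9% higher). In sham Xmo against sham saline 2 of 9 did, Ntrk2 and Igf1r, both lower, against 14.2% of all genes (5.33% lower). In OVX Xmo against sham saline 1 of 9 did, Igf1r, lower, against 14.9% of all genes (6.28% lower). All 3 comparisons use the same sham saline libraries. The lower values depend on the scale: in the deposited TPM the OVX saline means of Ntrk3, Igf1 and Igf1r were above those of sham saline, while Igf2r was higher on both scales. The TPM carry no TMM factor. In TPM, sham saline had the lowest group mean for Bdnf, Ntf3, Ntrk2, Ntrk3, Igf1, Igf1r and Igf2r, but not for Ngfr and Vgf. The TPM shift of the median gene was not measured, so a turned direction is not a finding about 1 gene alone. The share of all genes without overlap in TPM was not measured either.

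**Figure D1:**
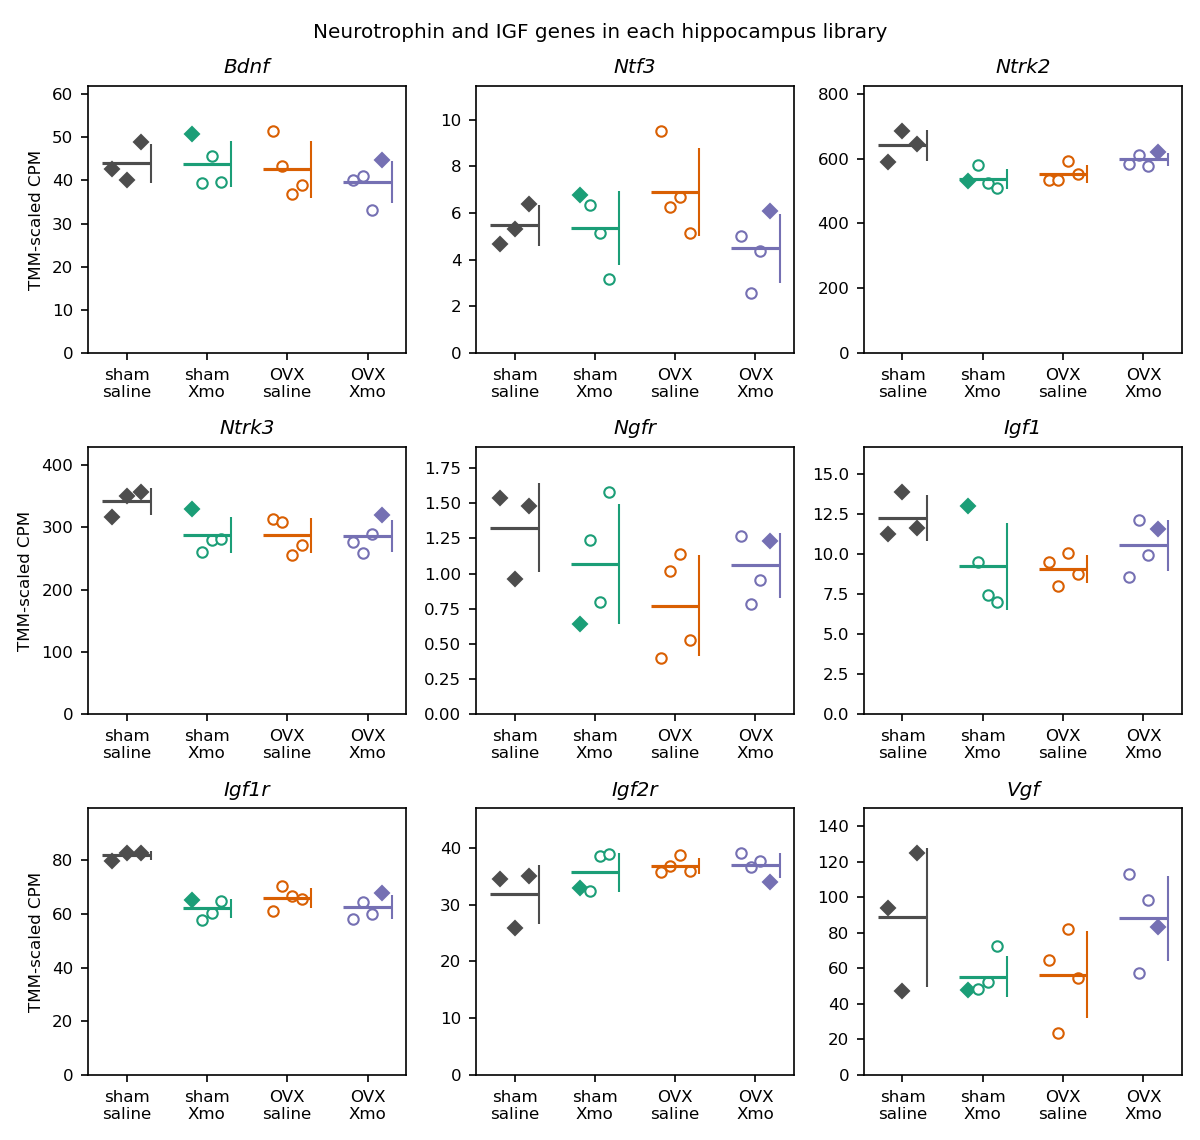
TMM-scaled CPM (vertical axes, from 0) of the 9 genes in each library, by group; diamonds are the 5 libraries that stood apart, open circles the other 10, horizontal lines group means and vertical lines 1 SD. Igf1r in sham saline (79.9 to 82.9 CPM) lies above all 12 other libraries (57.8 to 70.4 CPM) on this scale, an order of means that turns with the deposited TPM, while Bdnf and Vgf overlap in every pair of groups.

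Bdnf (ENSMUSG00000048482, chr2:109674700-109727007, plus strand) encodes the neurotrophin BDNF. It measured 42.7, 40.2 and 49.0 CPM in sham saline 1 to 3, and 50.7, 39.4, 45.7 and 39.6 CPM in sham Xmo 1 to 4. It measured 51.6, 43.3, 36.7 and 38.8 CPM in OVX saline 1 to 4, and 40.1, 41.1, 33.1 and 44.6 CPM in OVX Xmo 1 to 4. All groups overlapped, and the highest and the lowest library were both from ovariectomized mice. Between OVX saline and sham saline the log2 fold change was -0.04, with a 95% interval from -0.34 to 0.25, and that of OVX Xmo against OVX saline was -0.10 (-0.37 to 0.17). Both intervals include no change, and any value within them remains compatible with the data. In the deposited TPM Bdnf ranged from 9.28 to 17.2 in sham saline and from 18.0 to 22.5 in OVX saline, higher without overlap. On that scale, which carries no TMM factor, most members had their lowest group mean in sham saline. The share of all genes without overlap on it was not measured. Counts ranged from 729 to 2059 per library.

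Ntf3 (ENSMUSG00000049107, chr6:126101412-126166910, minus strand) encodes NT-3, a neurotrophin of the dentate gyrus in the adult hippocampus. It was scarce, with 91 to 381 counts per library. It measured 4.68, 5.33 and 6.40 CPM in sham saline, 6.77, 6.33, 5.13 and 3.19 CPM in sham Xmo, then 9.54, 6.25, 6.67 and 5.16 CPM in OVX saline, and 5.02, 2.56, 4.35 and 6.08 CPM in OVX Xmo. OVX saline 1 was the highest library and OVX Xmo 2 the lowest, and all groups overlapped in CPM. In the deposited TPM OVX saline (8.09 to 12.2) lay above sham saline (3.73 to 5.97) and OVX Xmo (3.57 to 7.82) without overlap. The share of all genes that did so in TPM was not measured. In OVX Xmo against OVX saline the log2 fold change was -0.62 (SE 0.27; edgeR unadjusted p = 0.0380, adjusted p = 0.998), which did not pass.

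Igf1 (ENSMUSG00000020053, chr10:87858265-87937042, plus strand) encodes IGF-1, which in the brain is made by neurons, glia and vessels as well as reaching it from the blood. It measured 11.3, 13.9 and 11.6 CPM in sham saline, 13.0, 9.52, 7.45 and 7.0 CPM in sham Xmo, then 9.52, 8.02, 10.1 and 8.74 CPM in OVX saline, and 8.55, 12.1, 9.98 and 11.6 CPM in OVX Xmo. Sham saline lay above OVX saline without overlap, and sham Xmo 1, a library of the set of 5, lay among the sham saline values. In OVX saline against sham saline Igf1 had a log2 fold change of -0.43 (SE 0.19; edgeR adjusted p = 0.184). In sham Xmo against sham saline it was -0.41 (SE 0.19; edgeR adjusted p = 0.277), and with sham Xmo 1 and OVX Xmo 4 left out it was -0.62 (SE 0.17; edgeR adjusted p = 0.0457), which passed. With a term for the 5 libraries the values were 0.02 and -0.10, and neither passed. In the deposited TPM the Igf1 mean was 2.57 ± 0.395 in sham saline (SD, n = 3) and 2.96 ± 0.362 in OVX saline (SD, n = 4), so the direction turned.

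Ntrk2 (ENSMUSG00000055254, chr13:58806596-59133970, plus strand) encodes TrkB, the receptor of BDNF, whose kinase-bearing and truncated forms are summed in a gene count. It measured 591, 687 and 644 CPM in sham saline, 532, 580.4, 526 and 508 CPM in sham Xmo, then 533, 533, 593 and 554 CPM in OVX saline, and 584, 610, 578 and 621 CPM in OVX Xmo. In CPM sham saline lay above sham Xmo without overlap, while 1 OVX saline library reached the lowest sham saline value. In the deposited TPM the direction turned, with means of 107.6 in sham saline, 128.6 in sham Xmo and 140.7 in OVX saline, and with library totals only Ntrk2 was at 0.05 in sham Xmo and 0.12 in OVX saline. The log2 fold change was -0.21 (SE 0.08; edgeR adjusted p = 0.121) for OVX saline against sham saline and -0.26 (SE 0.08; edgeR adjusted p = 0.111) for sham Xmo against sham saline. On the TMM scale Xmo went with a higher mean after ovariectomy and a lower mean after sham surgery. The interaction was 0.37 (SE 0.11, edgeR unadjusted p = 0.00446, adjusted p = 0.123), which did not pass. In the deposited TPM Xmo went with a higher mean after both surgeries (151 in OVX Xmo). With library totals only, where the median gene moved by -0.34, the interaction was 0.04 (edgeR adjusted p = 0.869). DESeq2 called Ntrk2 in OVX saline and in sham Xmo against sham saline and in the interaction, with adjusted p = 0.0435, 0.0185 and 0.0167.

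Ntrk3 (ENSMUSG00000059146, chr7:78175959-78738012, minus strand) encodes TrkC, the receptor of NT-3. It measured 316, 351 and 358 CPM in sham saline, 329, 260.1, 280.1 and 281 CPM in sham Xmo, then 314, 309, 256 and 271 CPM in OVX saline, and 276, 259, 289 and 320.5 CPM in OVX Xmo. In CPM sham saline lay above OVX saline without overlap, whereas in the deposited TPM Ntrk3 ranged from 27.6 to 45.8 in sham saline and, higher without overlap, from 50.4 to 71.8 in OVX saline. How many of all genes lay without overlap in TPM was not measured. With library totals only the log2 fold change of Ntrk3 was 0.08. Among the 9 genes Ntrk3 alone separated the set of 5, with 316 to 358 CPM there and 256 to 314 CPM in the other 10 libraries. The log2 fold change was -0.25 (SE 0.10) in each comparison with sham saline to within 0.01, and none passed (edgeR adjusted p = 0.156, 0.216 and 0.203 for OVX saline, sham Xmo and OVX Xmo). With a term for the 5 libraries it was -0.01 for OVX saline, -0.07 for sham Xmo and -0.08 for OVX Xmo.

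Ngfr (ENSMUSG00000000120, chr11:95568818-95587735, minus strand) encodes the p75 receptor, which in the adult forebrain marks cholinergic neurons of the basal forebrain rather than hippocampal cells. It had only 13 to 64 counts per library. The range was 0.961 to 1.54 CPM in sham saline, 0.644 to 1.58 in sham Xmo, 0.401 to 1.14 in OVX saline and 0.786 to 1.27 in OVX Xmo, and all groups overlapped. Ngfr had a log2 fold change of -0.79 in OVX saline against sham saline, with a 95% interval from -1.62 to 0.05. That wide interval includes no change, and any value within it remains compatible with the data at this depth.

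Igf1r (ENSMUSG00000005533, chr7:67952827-68233668, plus strand) encodes the IGF-1 receptor. Its level was 79.9, 82.9 and 82.8 CPM in sham saline 1 to 3, and 65.3, 57.8, 60.4 and 64.7 CPM in sham Xmo 1 to 4. It measured 61.1, 70.4, 66.8 and 65.5 CPM in OVX saline and 58.0, 64.3, 59.9 and 67.9 CPM in OVX Xmo. All 3 sham saline libraries lay above every other library, and the other 3 groups overlapped with each other. The group means were 81.9 ± 1.71 (SD, n = 3), 62.0 ± 3.59, 66.0 ± 3.84 and 62.5 ± 4.44 CPM (SD, n = 4 each).

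On the TMM scale Igf1r fell by 0.31 (SE 0.08) on the log2 scale in OVX saline (edgeR adjusted p = 0.0372), by 0.40 (SE 0.08) in sham Xmo (adjusted p = 0.0287) and by 0.39 (SE 0.08) in OVX Xmo (adjusted p = 0.0364), whereas the deposited TPM put its mean higher than in sham saline by 28.6%, 10.9% and 18.9%. With library totals as the only scaling, the median of all genes moved by 0.33, 0.32 and 0.31 in these comparisons, and Igf1r differed from sham saline by 0.01, -0.10 and -0.09, none past the test. Relative to the median of all genes under that scaling, Igf1r was at -0.31, -0.42 and -0.40. Igf1r was thus lower relative to the median gene, while as a share of all counts no difference passed.

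The 2 libraries of the set of 5 that are not sham saline, sham Xmo 1 and OVX Xmo 4, measured 65.3 and 67.9 CPM of Igf1r, within the range of the other 10 libraries (57.8 to 70.4 CPM). Without these 2 libraries Igf1r, on the TMM scale whose direction turns with TPM, was at -0.31 (adjusted p = 0.0186), -0.43 (0.0117) and -0.43 (0.00880) in OVX saline, sham Xmo and OVX Xmo. With a term for the 5 libraries, which leaves sham Xmo 1 and OVX Xmo 4 to set the size of that term, the values were -0.18 (adjusted p = 0.558), -0.30 (0.175) and -0.29 (0.326). With the mitochondrial share as a covariate they were -0.24 (adjusted p = 0.537), -0.35 (0.205) and -0.32 (0.770). The covariate, the share of all mitochondrial features, was highest in sham saline 2 and 3 (35.45% and 25.47% of counts). Sham Xmo 1 (20.61%) lay above sham saline 1 (20.19%). In that fit the covariate and the sham saline group cannot be fully told apart. Summed CPM of 6 general neuron markers had its highest median in sham saline (6146, lowest library 5892), against 4541 to 5262 in sham Xmo, 5134 to 5720 in OVX saline and 5654 to 6216 in OVX Xmo, with none of the 6 past the test in OVX saline. That of 9 microglia markers was 305 to 388 in sham saline and 377 to 408 in OVX saline, where 3 of 9 rose, against 3.65% of all genes. Endothelial markers were lower, with 3 of 8 past the test in OVX saline, 1 of 8 in sham Xmo and 0 of 8 in OVX Xmo. Of all genes 2.59%, 0.791% and 0.441% passed downward in these comparisons, the background for the next list too. The summed endothelial CPM was 198 to 298 in sham saline and 150.3 to 174 in OVX saline, without overlap. Neutrophil and blood markers were lower in 3 of 7 genes past the test in OVX saline (median log2 fold change -4.45), 1 of 7 in sham Xmo and 0 of 7 in OVX Xmo. The summed CPM of these 7 genes was 389 to 2206 in sham saline and 730 to 1122 in OVX saline, so the ranges overlapped. The part of these markers in the Igf1r result was not tested, and fewer cells of a type and less RNA per cell cannot be told apart in these bulk samples. Igf1r lost its call in OVX saline without any 1 of the 3 sham saline or 4 OVX saline libraries, with an adjusted p of up to 0.103. It lost its call in sham Xmo without sham saline 2 or 3 or sham Xmo 2, 3 or 4 (up to 0.122), and in OVX Xmo without sham saline 2 or 3, sham Xmo 2, any OVX saline library or OVX Xmo 1, 2 or 3 (up to 0.152).

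**Figure D2:**
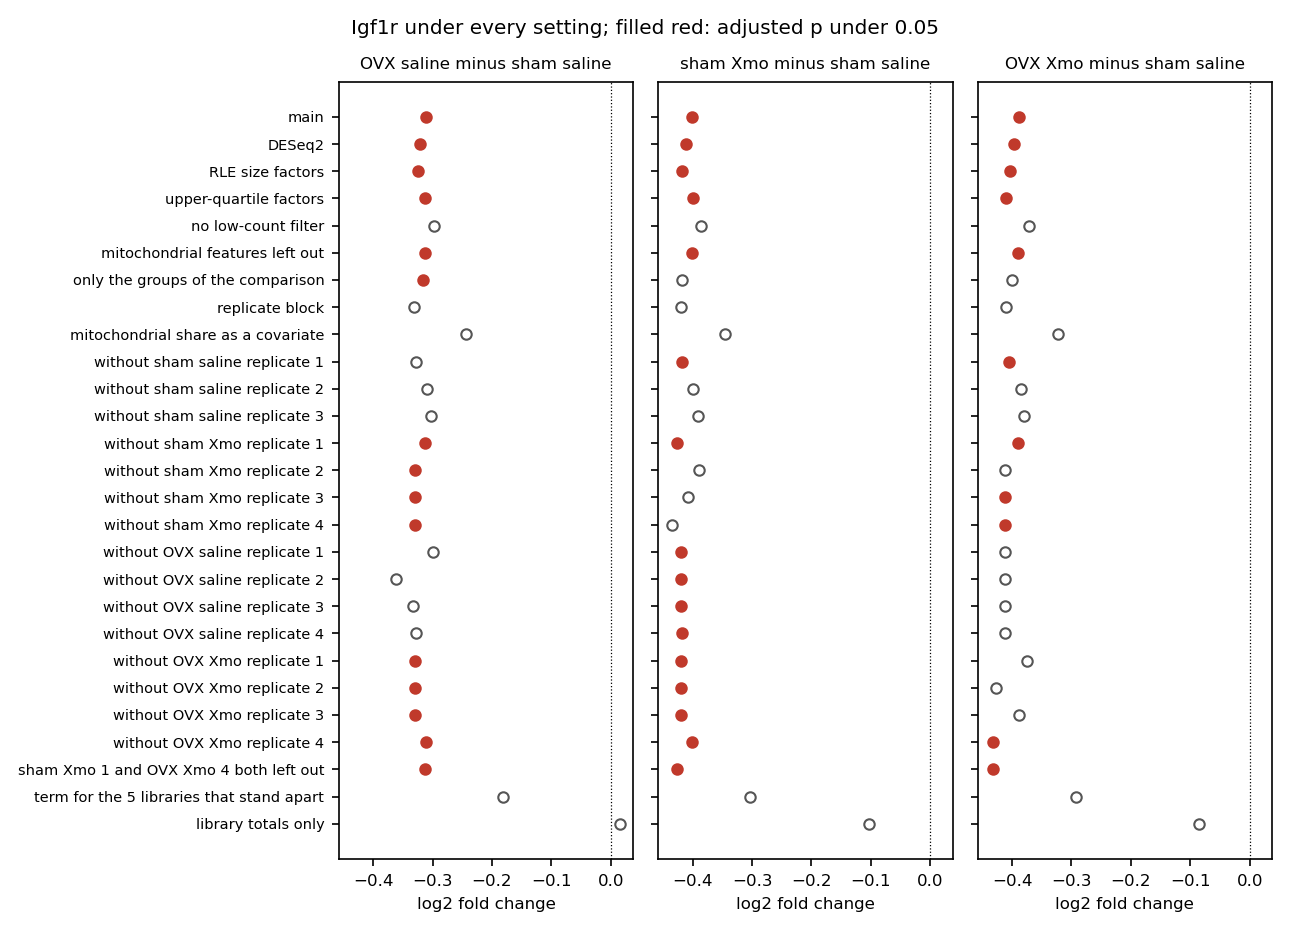
Log2 fold change of Igf1r (horizontal axis) in the 3 comparisons with sham saline under each setting (rows), filled red where the adjusted p was under 0.05. The values lie below 0 on every row except the library-totals row of OVX saline, at 0.01, and red points are fewest for OVX Xmo, 10 of the 26 rows other than the first; the deposited TPM, which is not a row here, turns the direction.

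Igf2r (ENSMUSG00000023830, chr17:12682406-12769664, minus strand) encodes the IGF-2 and mannose 6-phosphate receptor. It measured 34.5, 25.9 and 35.0 CPM in sham saline, 32.9, 32.4, 38.5 and 38.9 CPM in sham Xmo, then 35.8, 36.8, 38.8 and 35.9 CPM in OVX saline, and 39.2, 36.7, 37.7 and 34.0 CPM in OVX Xmo. OVX saline lay above sham saline without overlap, and sham saline 2 was the lowest library. Igf2r differed by 0.21 on the log2 scale in OVX saline against sham saline (SE 0.11; edgeR adjusted p = 0.255). With library totals as the only scaling Igf2r passed upward in OVX saline (0.52, adjusted p = 0.0329) and OVX Xmo (0.50, adjusted p = 0.0461), of which 0.33 and 0.31 were the shift of the median gene. The antisense RNA gene Airn overlaps 32.5% of the Igf2r span, and the sources used here do not say whether reads were assigned by strand. Airn itself had 26 to 69 counts per library and Igf2r 538 to 1571.

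Vgf (ENSMUSG00000037428, chr5:137026392-137033351, plus strand) encodes a neuropeptide precursor that is packed into dense-core vesicles and follows neuronal activity and BDNF. It measured 93.8, 47.2 and 125 CPM in sham saline, 47.9, 48.5, 52.5 and 72.6 CPM in sham Xmo, then 64.5, 23.9, 82.4 and 54.8 CPM in OVX saline, and 113, 57.5, 98.6 and 83.5 CPM in OVX Xmo. Each group spanned a wide range, and all groups overlapped. The means were 88.8 ± 39.3 (SD, n = 3), 55.4 ± 11.6, 56.4 ± 24.5 and 88.2 ± 23.8 CPM (SD, n = 4 each), so the highest 2 means were those of untreated sham and treated OVX mice. The log2 fold change was 0.64 (95% interval -0.07 to 1.36) for OVX Xmo against OVX saline and -0.68 (-1.45 to 0.08) for sham Xmo against sham saline. The interaction was 1.33 (SE 0.49; edgeR unadjusted p = 0.0166, adjusted p = 0.186) and did not pass.

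**Figure D3:**
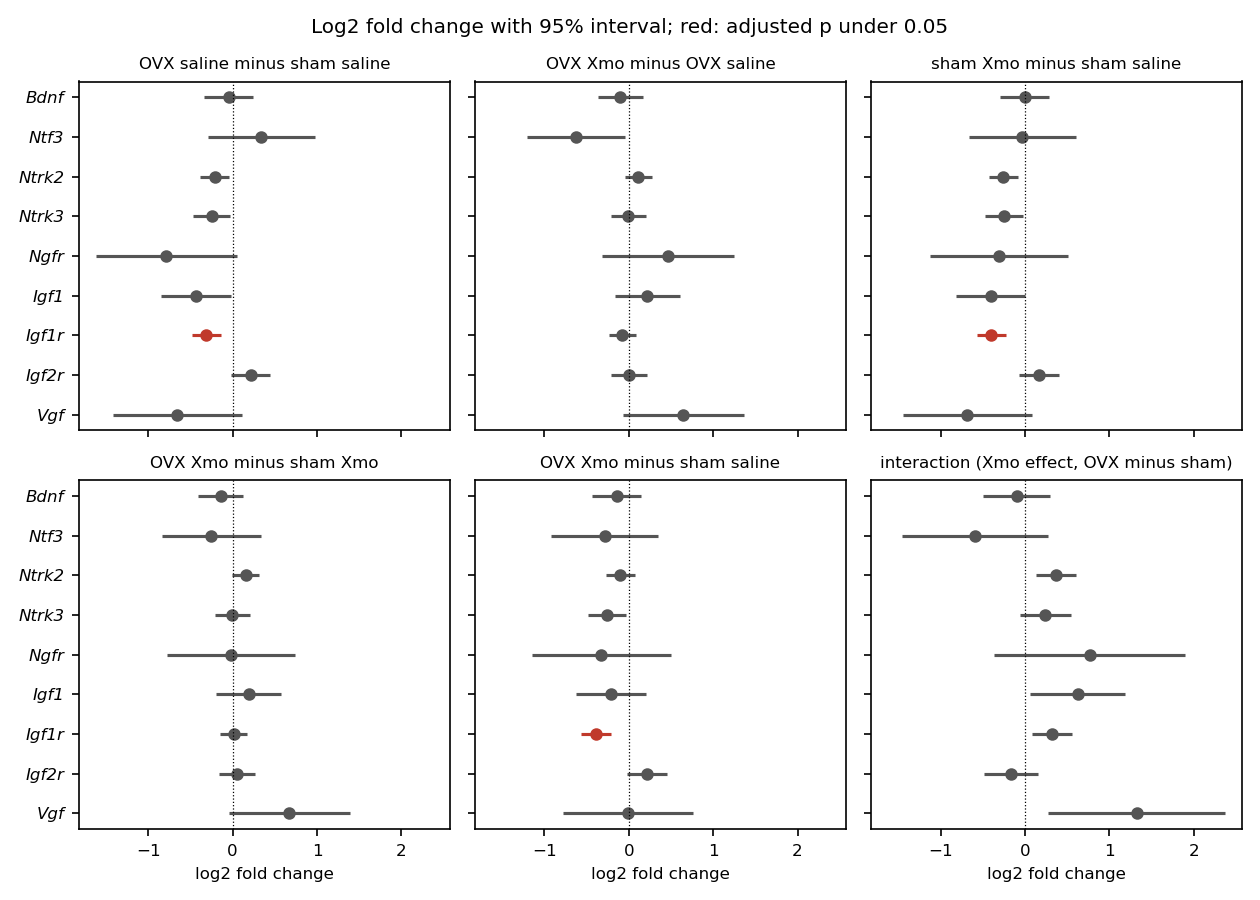
Log2 fold change (horizontal axes) with its 95% interval for the 9 genes in the 5 comparisons and the interaction, from the TMM-scaled fit; red marks an adjusted p under 0.05. Igf1r is red in the 3 comparisons with sham saline, at -0.31, -0.40 and -0.39, a direction that turns with the deposited TPM, and the widest intervals belong to Ngfr, Ntf3 and Vgf.

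In OVX Xmo against OVX saline, the comparison of treatment after ovariectomy, no member lay without overlap in CPM, against 3.11% of all genes. In the deposited TPM Ntf3 did, with OVX Xmo lower. The log2 fold changes ran from -0.62 (Ntf3) to 0.64 (Vgf). The narrowest intervals were those of Igf1r (-0.24 to 0.08) and Ntrk2 (-0.05 to 0.27). With sham Xmo 1 and OVX Xmo 4 left out, Igf1r was at -0.12, Ntf3 at -0.80 and Vgf at 0.67, and again none passed. In OVX Xmo against sham Xmo, no member lay without overlap in CPM either (5.88% of all genes did), and Igf1r was at 0.01 (-0.15 to 0.17). In the deposited TPM Ntrk2 lay higher in OVX Xmo (141.5 to 161) than in sham Xmo (up to 141), narrowly without overlap. The shares of all genes given here are for CPM. The share without overlap in TPM was not measured, so the TPM separations of Ntf3 and Ntrk2 have no background.

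Levels between genes were compared with the deposited TPM, which divides by transcript length. Ntrk2 stood highest at 134 ± 20 TPM (SD over all 15 libraries), followed by Ntrk3 at 53.4 ± 11.6 and Vgf at 51.8 ± 20.5 TPM. Ntrk3 exceeded Vgf in 8 of 15 libraries, so their order is not settled. Bdnf followed at 18.5 ± 3.21, Igf1r at 11.9 ± 1.66, Igf2r at 7.57 ± 1.88 and Ntf3 at 7.16 ± 2.31 TPM. Igf2r exceeded Ntf3 in 9 of 15 libraries, and these 2 were not separated either. Igf1 at 3.12 ± 0.742 and Ngfr at 0.522 ± 0.195 TPM were the scarcest, and their ranges did not overlap. In every library each receptor stood above its own ligand in TPM: TrkB above BDNF, TrkC above NT-3 and the IGF-1 receptor above IGF-1.

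**Figure D4:**
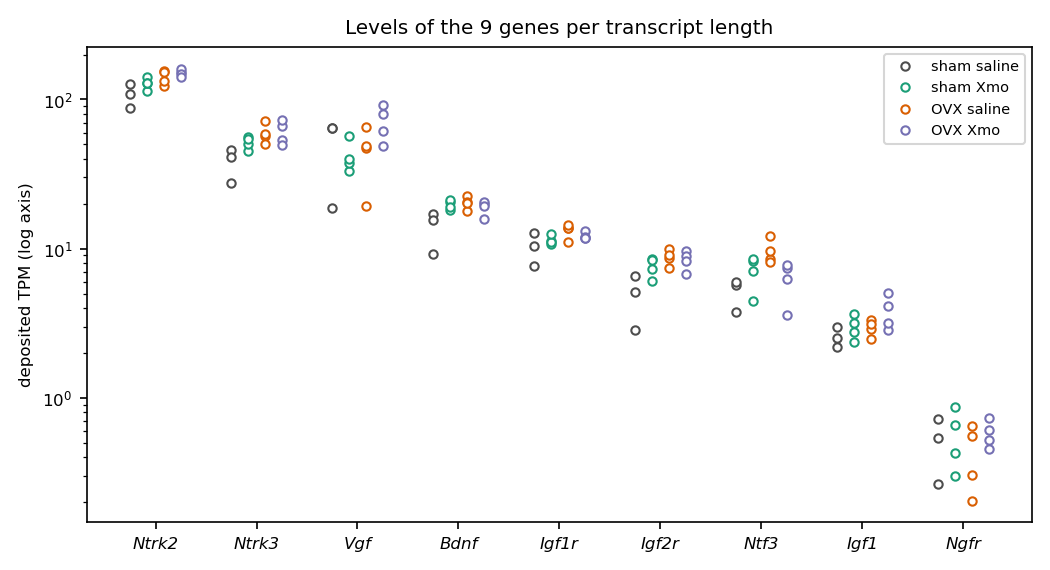
Deposited TPM (vertical log axis) of the 9 genes in each of the 15 libraries, ordered by mean and coloured by group. Ngfr (0.204 to 0.874 TPM) lies clear of the other genes and Ntrk2 (87.5 to 161 TPM) of Ntrk3 but not of Vgf (up to 91.9 TPM), while Ntrk3 and Vgf, and Igf2r and Ntf3, lie over the same range.

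The ratio of counts to TPM, scaled within a library, gives the transcript length implied by each TPM value, and it varied most in Ntrk3 and Igf1. For Ntrk3 the ratio varied with a coefficient of variation of 12.7% over the 15 libraries, more than in 91.5% of the 11426 genes compared, and was shortest in OVX Xmo 3. For Igf1 it varied by 10.1%, more than in 85.8% of genes, and was again shortest in OVX Xmo 3. For Bdnf and Ntrk2 it varied by 0.585% and 0.910%. TPM values of Ntrk3 and Igf1 thus carry a difference in implied length that counts do not, and which transcripts changed cannot be read from a gene table.

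Pairs of members were compared across libraries after the group means were removed (36 pairs). None passed over the 15 libraries. The smallest adjusted p was 0.336, shared by 3 pairs, among them Igf1 and Igf2r (Pearson r = -0.654, Spearman rho = -0.704, permutation p = 0.0157 and 0.0153, n = 15; r = -0.628 without 2 libraries). In the deposited TPM the same pair had r = 0.227 and rho = 0.0464 (permutation p = 0.432 and 0.886), so its sign turned. In the 10 libraries outside the set of 5, Ntrk2 and Ntrk3 had r = -0.846 and rho = -0.830 (permutation p = 0.00145 for both, adjusted p = 0.0522; r = -0.792 without 2 libraries), and no pair passed. That pair had the smallest p of the 36 in the subset. Over all 15 libraries it had r = -0.190 and rho = -0.214 (permutation p = 0.527 and 0.475), and in the deposited TPM r = 0.187 and rho = 0.10 (permutation p = 0.703 and 0.795).

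The genes most like each member over the 15 libraries were found by the root mean square difference of standardised log2 CPM, where the median over all genes was between 1.35 and 1.40 SD. Igf1 was closest to the teneurin gene Tenm1 (0.293 SD) and to Hspa4l (0.319 SD). Igf2r was closest to Grk6 (0.312 SD) and Psmc4 (0.325 SD), and Ntrk3 to the potassium channel subunit gene Kcnv1 (0.321 SD) and 9330121K16Rik (0.363 SD). Igf1r was closest to BC024978 (0.387 SD) and Tmem131 (0.450 SD), and Ntrk2 to the potassium channel gene Kcna2 (0.425 SD) and Eif2ak1 (0.431 SD). Bdnf (Gm2237, 0.459 SD; Ostc, 0.544 SD), Vgf (Slitrk1, 0.465 SD; Magee1, 0.483 SD), Ngfr (Map4, 0.539 SD; Myo1e, 0.548 SD) and Ntf3 (Gm42847, 0.611 SD; Gm20498, 0.626 SD) had more distant neighbours. This is a description over libraries that share groups and the set of 5.

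The other ligands and processing genes of the neurotrophin pathway showed no call in OVX saline against sham saline (0 of 15 by edgeR, also 0 at an unadjusted p under 0.05, median log2 fold change 0.01 against 0.01 over all genes). With library totals as the only scaling, where the median gene moved by 0.33, 2 of 15 rose and none fell. The share of all genes that rose under that scaling is not reported here. Ntf5 and Sort1 did not pass and are named for their roles, a choice made after the values were seen. Ntf5, which encodes NT-4, was near the limit of detection, from 0 to 0.454 CPM. Sort1, which encodes sortilin, the co-receptor for pro-neurotrophins, measured 557 ± 100 and 561 ± 32 CPM in sham saline and OVX saline.

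Of 24 tested receptor and adaptor genes of the neurotrophin pathway, 2 rose and 1 fell in OVX saline against sham saline, where 3.65% of all genes rose and 2.59% fell; with sham Xmo 1 and OVX Xmo 4 left out, 5 rose and 2 fell. With library totals as the only scaling 9 rose and none fell in OVX saline, and 10 rose and none fell in OVX Xmo. The median gene itself moved up by 0.33 and 0.31 there. The share of all genes that passed with library totals only, or without the 2 libraries, is not reported here. Kidins220, a membrane scaffold that binds Trk receptors, rose by 0.32 (SE 0.07; edgeR adjusted p = 0.0252), from 249 ± 9.38 to 312 ± 11.5 CPM. Shc2, an adaptor that couples Trk receptors to RAS, rose by 0.35 (SE 0.09; edgeR adjusted p = 0.0427). Sos1, the exchange factor that loads RAS with GTP, fell by 0.43 (SE 0.09; edgeR adjusted p = 0.0215). Kidins220 also rose in OVX Xmo against sham saline, by 0.35 (SE 0.07; edgeR adjusted p = 0.0364), where 0.746% of all genes rose. With a term for the 5 libraries, none of these passed.

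Of 23 genes for IGF ligands, receptors and binding proteins, 2 fell in OVX saline against sham saline and none rose on the TMM scale. Of all genes 2.59% fell and 3.65% rose in that comparison. With library totals only, where the median gene moved by 0.33, 3 rose and 1 fell. The share of all genes that passed under that scaling is not reported here. With a term for the 5 libraries 0 of 23 passed. Igfbp7, an IGF-binding protein gene of blood vessels, fell by 1.40 on the log2 scale (SE 0.31; edgeR adjusted p = 0.0224), with 1 sham saline library at 37.3 CPM and the lowest at 13.1 CPM, against 6.87 to 9.12 CPM in OVX saline. Grb10, an adaptor that restrains insulin and IGF-1 receptor signalling, fell by 0.64 (SE 0.17; edgeR adjusted p = 0.0433). Igf2, which did not pass and was picked out after its values were seen, encodes the other IGF ligand and in brain is strong in choroid plexus and meninges. Its level was 55.6 ± 6.82 CPM (sham saline) and 30.7 ± 10.6 CPM (OVX saline; log2 fold change -0.86, SE 0.60, adjusted p = 0.404). The choroid plexus marker list was lower in OVX saline for all 11 of its genes, none past the test, with a summed level of 207 to 1267 CPM (sham saline) and 79.8 to 467 CPM (OVX saline). The endothelial list had 3 of 8 genes past the test downward, with sums of 198 to 298 and 150.3 to 174 CPM. The part of either cell type in the Igfbp7 and Igf2 values was not tested.

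Downstream of the receptors, 3 of 27 PI3K, AKT and mTOR genes fell in OVX saline against sham saline and none rose on the TMM scale. Of all genes 2.59% fell and 3.65% rose in that comparison. With sham Xmo 1 and OVX Xmo 4 left out, 5 of the 27 fell and none rose. With library totals only, where the median gene moved by 0.33, the balance turned, with 9 up and 1 down. With a term for the 5 libraries 0 of 27 passed. Among them Gsk3b and Gsk3a, kinases that AKT inhibits, fell by 0.49 (SE 0.13; edgeR adjusted p = 0.0406) and 0.40 (SE 0.11; adjusted p = 0.0462). In the list of 22 RAS, MAPK and CREB genes 1 rose and 1 fell. Map2k2, which encodes the kinase MEK2, rose by 0.55 (SE 0.10, edgeR adjusted p = 0.0152). With the same 2 libraries left out, 3 rose and 3 fell. With library totals only 5 rose and none fell, and with the term for the 5 libraries 0 of 22 passed. The share of all genes that passed without the 2 libraries or with library totals only is not reported here. In sham Xmo against sham saline Gsk3a fell by 0.56 (SE 0.11; adjusted p = 0.0280), and in OVX Xmo Map2k2 rose by 0.51 (SE 0.10; adjusted p = 0.0334). Between OVX Xmo and OVX saline none of the 27 and none of the 22 passed with edgeR, with 1 and 0 genes at an unadjusted p under 0.05.

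Several of these downstream genes separated the set of 5 libraries from the other 10. Gsk3b measured 168 to 247 CPM in the 5 and 131 to 162 CPM in the other 10. In the PI3K, AKT and mTOR list 5 of 27 genes did not overlap between the 5 and the other 10, in the RAS, MAPK and CREB list 4 of 22, and in the IGF list 0 of 23, against 6.29% of all genes. The set was recognised from these same expression values, so these shares are a description and not a test. With a term for the 5 libraries, Gsk3b was at -0.15 (adjusted p = 0.767) in OVX saline against sham saline, while Gsk3a was at -0.62 (adjusted p = 0.213). With library totals as the only scaling, Igfbp7 (-1.0), Kidins220 (0.65), Shc2 (0.66) and Map2k2 (0.86) passed in OVX saline against sham saline, while Sos1 (-0.10), Grb10 (-0.32), Gsk3a (-0.08) and Gsk3b (-0.17) did not.

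Vgf is stored in dense-core vesicles and induced by activity, and the lists for both held no call in OVX saline against sham saline in the fit of all 15 libraries on the TMM scale. Of 19 dense-core vesicle genes 0 passed (median log2 fold change -0.04), and of 16 activity-regulated genes 0 passed (median -0.18, 3 of 16 above 0, against 50.5% of all genes). By edgeR, 5 and 3 of them had an unadjusted p under 0.05. With sham Xmo 1 and OVX Xmo 4 left out, 3 of 19 dense-core vesicle genes rose, the neuropeptide genes Npy (0.55), Cck (0.51) and Pdyn (0.60). With library totals only, where the median gene moved by 0.33, 6 of 19 rose. The activity list had 0 calls in both settings, and the share of all genes that passed in them is not reported here. On the TMM scale, in sham Xmo against sham saline, 2 of 16 activity-regulated genes lay above 0 (median -0.28), against 53.4% of all genes with a median of 0.03. The direction counts given here were not repeated with library totals only, where the median gene moved by 0.32 in that comparison. In OVX Xmo against OVX saline 10 of 16 lay above 0 (median 0.04, against 0.003 over all genes). In the interaction 13 of 16 lay above 0 (median 0.37), against 47.7% of all genes, and 0 of 16 passed. Vgf, at 1.33, lay above 0 as well and did not pass. The interaction subtracts the sham Xmo difference, so its count partly restates that one and uses the same sham saline libraries.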

How the data were processed

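Hippocampi were flash frozen, RNA was taken up in Trizol and libraries were built with a TruSeq kit, per the labels' protocols. The authors deposited gene counts (whole numbers) and TPM for 51826 features, per the file headers. The submitters' processing notes name FastQC 0.11.2, Trimmomatic 0.36, Bowtie2 2.3.2, StringTie 1.3.3b and GRCm38.p6, without roles. The sources used here do not state how strand was treated. The gene table also has 12 columns whose names match no sample here, and they were not used. The miRNA table was not used here.

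Counts were filtered (filterByExpr), scaled by TMM and fitted with edgeR 4.0.16 (R 4.3.3), quasi-likelihood, all 15 libraries in 1 fit with 11 residual degrees of freedom. Adjusted p-values are Benjamini-Hochberg over all 19969 genes of a comparison, with 0.05 as the threshold. The interaction is the Xmo effect in OVX minus that in sham mice. Each SE is the fold change divided by the root of F, and intervals are 95%. Pairs of members were tested with 100000 permutations within groups. Promoters are from RefSeq (GRCm38.p6). Tests were checked on simulated data. Alternatives were DESeq2 1.42.0, RLE and upper-quartile factors, no filter, mitochondrial features left out, 2-group fits, a replicate block, a mitochondrial covariate and leaving out each library; settings for the 5 libraries and for library totals were added after seeing the data. All 9 members are named, up to 4 called genes per list (some are not reported here), and 2 like genes per member. Members and lists were chosen with earlier results of these data known.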

Additional observations from a re-analysis of the deposited data

How the results depend on the processing

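Of 1395 recalculated gene results, 1275 were counted as unchanged. A called value had to keep its sign and call, and a value without a call had to stay uncalled within 1 standard error. The sign of values without a call was not checked. A call was lost in 38 results and gained in 6, and 75 without a call moved by more than 1 standard error. The remaining called value, 1 result, turned sign: Igf1r in OVX saline against sham saline with library totals only, at 0.015. On the deposited TPM scale the Igf1r mean differed from sham saline by 28.6% in OVX saline, 10.9% in sham Xmo and 18.9% in OVX Xmo, all turned from the main direction.

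The count of members past the test was 1 in each comparison with sham saline. For OVX saline it was 2 with DESeq2 (Igf1r and Ntrk2) and 0 with no low-count filter, with the mitochondrial covariate and with the term for the 5 libraries. For sham Xmo it was 2 with DESeq2 (Igf1r and Ntrk2) and 2 without sham Xmo 1 and OVX Xmo 4 (Igf1r and Igf1), and 0 with no filter, with only the groups compared, with the mitochondrial covariate, with the term for the 5 and with library totals only. For OVX Xmo it was 0 with no filter, with only the groups compared, with the mitochondrial covariate and with the term for the 5. For the interaction it was 1 with DESeq2 (Ntrk2) against 0 with edgeR as fitted. The cause of these differences was not tested. Leaving out each library in turn gave counts between 0 and 1 in the comparisons with sham saline. Igf1r passed in 8, 10 and 5 of 15 such fits (OVX saline, sham Xmo, OVX Xmo), with log2 fold changes between -0.36 and -0.30, -0.44 and -0.39, and -0.43 and -0.37, and adjusted p up to 0.103, 0.122 and 0.152. Igf1r passed in 14, 15 and 10 of 26 other settings in all.

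With the replicate block the count was 0 in each comparison with sham saline, and Igf1r was at -0.33 (adjusted p = 0.0763), -0.42 (0.0856) and -0.41 (0.11). The numbers do not pair the samples: deviations of same-numbered libraries correlated between -0.215 and 0.186, above 0.1 in 2 of 21 pairs. Counts of 13 to 64 limit Ngfr, and counting error does not cover differences between animals.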
